A study of Mus musculus with 17 samples.

Results

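Acetylation of histone H3 at lysine 27 (H3K27ac) was compared between mouse brain carrying a 6-hydroxydopamine (6-OHDA) lesion and treated with NDST3, and sham-operated brain. H3K27ac was mapped by CUT&RUN, in which an antibody directs a nuclease to cut and release the DNA around the marked histones. The deposited table gave 1 normalized tag signal per region and group, each pooled from 2 libraries, for 11424 promoter regions. A region was kept where the signal was at least 1 in any of the 3 groups (sham, 6-OHDA, and 6-OHDA with NDST3), which left 11326 of 11424 regions, naming 7204 genes. The other 98 regions stood at 0.5 in every group. The ratio for each region was the log2 of (NDST3-treated signal + 1) over (sham signal + 1), and a region was counted as higher or lower when that ratio reached 2-fold. With 1 pooled value per group there was no replicate spread, so no test, error or p-value accompanies any H3K27ac value.

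All animals were adult ICR mice, labelled WT, and the libraries were labelled only as brain. They were females of 8 weeks at surgery, and the lesioned groups received a unilateral injection of 6-OHDA, a toxin taken up by catecholamine neurons, at 10 µg per µl into the substantia nigra. The NDST3-treated group received 2 µl of NDST3 into the same site 5 days later. The study's methods describe an AAV9 vector with human NDST3 under the CMV promoter and a lentiviral CMV vector for NDST3. Its methods for these sequencing samples do not name which was used. The CMV promoter is not restricted to neurons. The labels name no sorted cell type, although the study's text speaks of dopamine neurons for the ATAC-seq profiles. In a bulk sample fewer cells of a type and less signal per cell cannot be told apart. The sham group is labelled as a sham control with no agent named, so the comparison joins the lesion and the treatment in 1 difference. The 6-OHDA group, which shares the lesion, is given beside most of the regions named, and it shares the sham column with the comparison described here.

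H3K27ac is placed by the acetyltransferases p300 and CBP and removed by histone deacetylases, and it marks active promoters and enhancers. At an active promoter the mark usually sits on the nucleosomes that flank the start site. NDST3 is an N-deacetylase and N-sulfotransferase of the heparan sulfate pathway, and the study examined it as a regulator of chromatin. Tag signal at a promoter measures how much marked chromatin was released there and is not itself a measure of transcription.

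The table came with a feature that bears on every count below. In all 11424 regions the NDST3-treated signal was equal to or above the 6-OHDA signal, and it was below it in 0 regions, so every region has that order. Counts of regions above or below sham therefore describe this set and not all promoters. The columns were also not independent. Among 10610 regions with a 6-OHDA signal of at least 5, the NDST3-treated value was a simple fraction of the 6-OHDA value (denominator up to 10) in 22.5%, against 3.37% for sham over 6-OHDA and 2.62% for NDST3 over sham. Whether the regions were chosen by this order was not tested. Whether the NDST3-treated column was computed from the 6-OHDA column was not tested either. The number of reads behind the signals is unknown. Coordinates are given as deposited. They did not match the mm10 build named in the labels, since only 2.31% of 10818 regions placed a start site within 10 bases of the GRCm38 annotation. The promoter windows printed below are in GRCm38, so their positions cannot be set against those of the regions.

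To show the kind of DNA these regions lie beside, the RefSeq promoters (GRCm38.p6, 250 bases before to 50 bases after the start site, in the direction of the gene) of 4 genes are printed. With the pseudocount of 1 used here, Usp46 had the highest ratio to sham and Oga the lowest, Txlng had the highest NDST3-treated signal among regions under 1 in sham, and Gabra5 had the highest ratio among genes of the lists described further on. Capitals mark GC boxes (GGGCGG) and CCAAT boxes (CCAAT) on either strand, and no CRE (TGACGTCA), AP-1 (TGANTCA), NRF1 (the 10-base palindrome) or TATA box (TATAAA) letters were found in the 4 windows.
Usp46: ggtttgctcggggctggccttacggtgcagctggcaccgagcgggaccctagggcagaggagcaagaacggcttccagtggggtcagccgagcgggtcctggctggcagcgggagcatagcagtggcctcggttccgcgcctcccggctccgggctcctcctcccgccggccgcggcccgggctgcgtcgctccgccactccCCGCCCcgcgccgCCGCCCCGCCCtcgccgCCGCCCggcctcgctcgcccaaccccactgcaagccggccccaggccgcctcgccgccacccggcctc
Oga: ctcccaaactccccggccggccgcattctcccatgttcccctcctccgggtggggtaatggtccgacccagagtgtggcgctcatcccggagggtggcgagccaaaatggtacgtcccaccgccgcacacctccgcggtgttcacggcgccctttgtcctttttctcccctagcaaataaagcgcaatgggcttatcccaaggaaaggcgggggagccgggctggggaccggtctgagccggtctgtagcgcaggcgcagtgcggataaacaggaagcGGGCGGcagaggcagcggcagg
Txlng: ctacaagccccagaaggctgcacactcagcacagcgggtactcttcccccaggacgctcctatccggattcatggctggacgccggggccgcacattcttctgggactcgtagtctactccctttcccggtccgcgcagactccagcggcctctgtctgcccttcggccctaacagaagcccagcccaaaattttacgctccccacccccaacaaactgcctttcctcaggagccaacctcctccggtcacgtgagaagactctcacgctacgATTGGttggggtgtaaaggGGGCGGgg
Gabra5: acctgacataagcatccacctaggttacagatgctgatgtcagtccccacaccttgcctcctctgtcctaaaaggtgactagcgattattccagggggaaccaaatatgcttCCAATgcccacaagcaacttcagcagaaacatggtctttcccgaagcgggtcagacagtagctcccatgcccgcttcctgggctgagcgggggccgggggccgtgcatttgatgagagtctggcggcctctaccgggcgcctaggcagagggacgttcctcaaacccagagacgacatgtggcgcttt

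The Usp46 window (chr5:74068362-74068661, minus strand) held 38 CpG dinucleotides, a GC content of 78.0% and 4 GC boxes. Oga (chr19:45783504-45783803, minus strand) had 26 CpGs and 1 GC box. The Txlng window (chrX:162829405-162829704, minus strand) held 18 CpGs with 1 GC box and 1 CCAAT box. Gabra5 (chr7:57510010-57510309, minus strand) had 13 CpGs, the fewest of the 4, and 1 CCAAT box.

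CpG-rich promoters of this kind were typical of the whole set. Of 7004 genes on chromosomes that the promoter table covers, 5740 (82.0%) were matched. Their median CpG count was 21 per 300 bases, against 7.0 over all 27025 promoters in the table, and their median ratio of observed to expected CpG was 0.77 against 0.39. A GC box was found in 63.4% of them against 35.9% of all promoters, and a TATA box in 6.43% against 14.2%. CRE letters were present in 3.62% against 1.88%, and NRF1 letters in 2.21% against 0.977%. CCAAT boxes were as frequent as elsewhere (37.5% against 37.9%), while AP-1 letters (4.55% against 7.93%) and E-boxes, CANNTG, which can overlap the other motifs (62.9% against 72.1%), were less frequent. Within the set these features hardly varied with the H3K27ac ratio. Genes with a region 2-fold or more above sham had a median of 22 CpGs and a GC box in 63.8%, and genes with no region past 2-fold had 21 CpGs and a GC box in 63.2%. Only 78.0% of the genes with a lower region were matched, so that check is void for them.

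Most promoter regions carried more H3K27ac signal in the NDST3-treated group than in sham, with a modest typical difference and a long tail. The median signal was 15.04 in sham (quartiles 9.71 and 21.63), 16.4 in 6-OHDA (10.95 and 23.35) and 22.93 in the NDST3-treated group (15.89 and 32.01). The NDST3-treated signal was above sham in 9187 regions (81.1%), below it in 2116 and equal in 23. The median log2 ratio was 0.53, with quartiles of 0.12 and 1.02. In all, 2911 of 11326 regions (25.7%) were 2-fold or more above sham, in 2551 genes, and 72 (0.636%) were 2-fold or more below it, in 71 genes. The ratio reached 4-fold upwards in 471 regions and downwards in 4, and 14 regions lay 16-fold or more above sham.

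This split depended on the scale between the columns. The summed NDST3-treated signal was 1.51 times the summed sham signal, and the summed 6-OHDA signal was 1.08 times it. After subtraction of the median of 0.53, 1105 regions (9.76%) were 2-fold or more above and 476 (4.2%) below. How the columns were scaled is not given in the sources used here, so a general gain of signal and a difference in scale cannot be told apart, and values below are also read against the median.

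**Figure D1:**
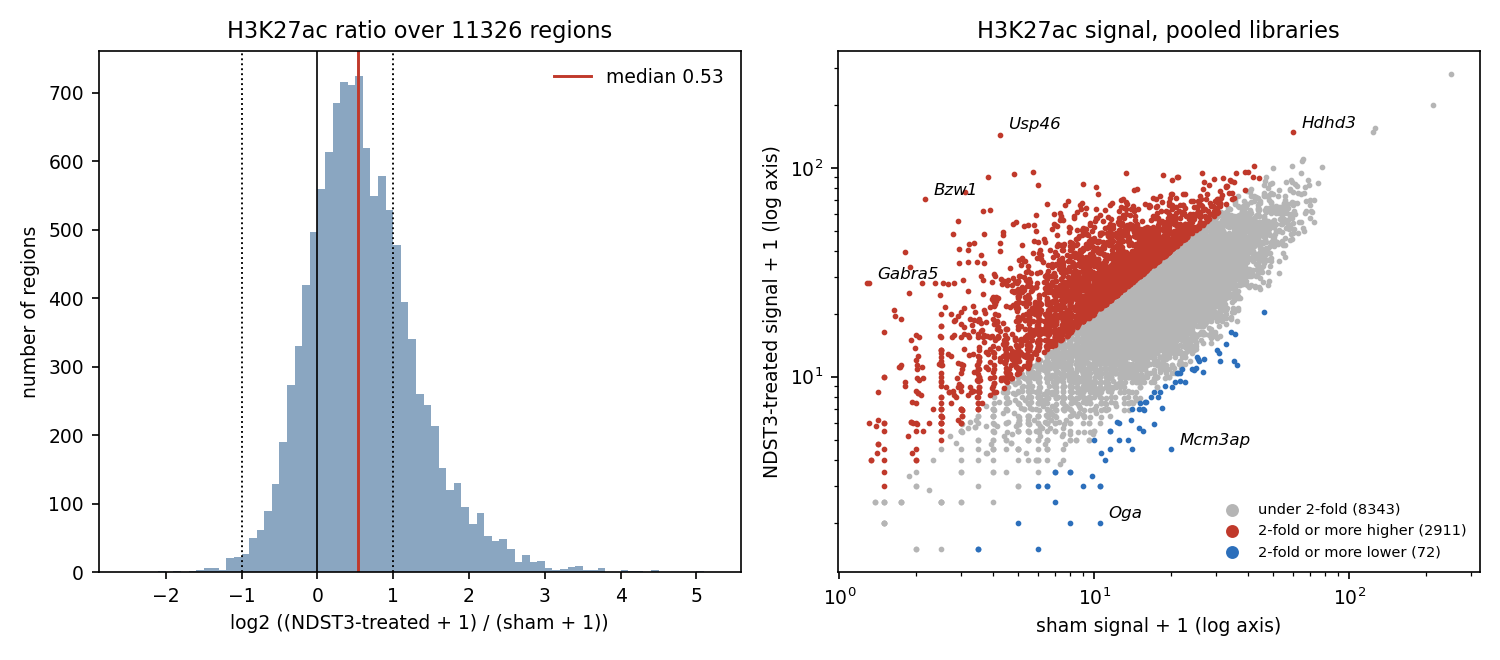
Left, histogram of the log2 ratio of NDST3-treated over sham H3K27ac signal in 11326 regions, with the median of 0.53 in red, 0 as a solid line and 2-fold as dotted lines. Right, NDST3-treated against sham signal (both + 1, log axes), 1 point per region from pooled libraries; 2911 red points lie 2-fold or more above sham and 72 blue points 2-fold or more below.

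Where the sham signal was low, 2-fold ratios were common. In the decile of regions with the lowest sham signal (median 4.03), 65.4% were 2-fold or more above sham, with a median NDST3-treated signal of 10.89. In the decile with the highest sham signal (median 35.71), the share was 2.47% and the NDST3-treated median was 41.18. Because the sham value is part of the ratio, the regions were also ordered by the mean of the 3 groups. The share was then 28.2% in the lowest decile, between 24.0% and 27.3% in the next 8, and 21.8% in the highest. Over the higher regions as a class, the median signal was 9.29 in sham, 16.85 in 6-OHDA and 27.9 with NDST3. Regions past 2-fold in neither direction had medians of 17.58, 16.4 and 21.84. In the lower regions the medians were 14.56, 4 and 6, where the order of the last 2 is the same in every region of the table.

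**Figure D2:**
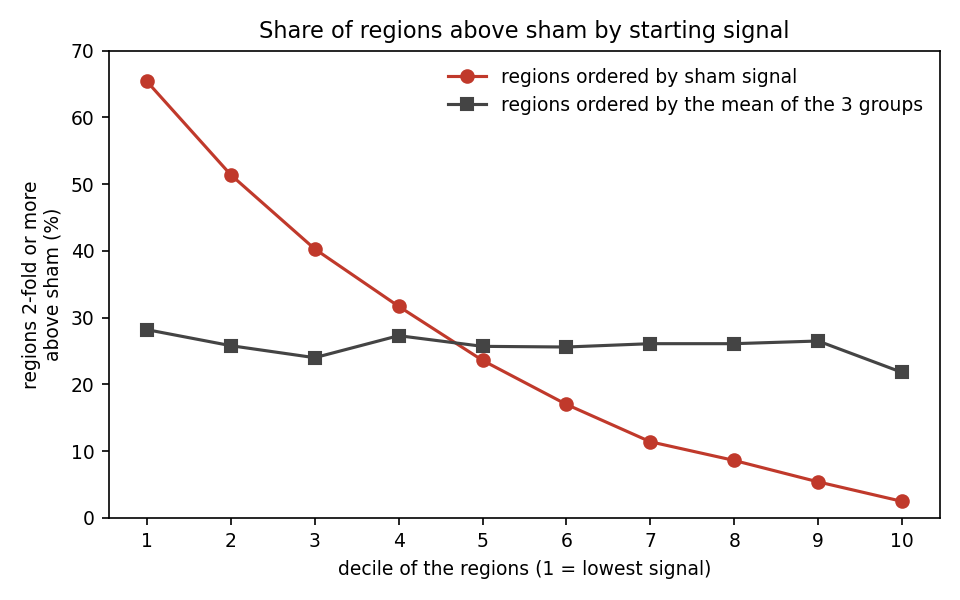
Share of regions 2-fold or more above sham (%, vertical axis) by decile of the regions (horizontal axis, 1 is the lowest signal). Ordered by sham signal (red) the share runs from 65.4% to 2.47%, and ordered by the mean of the 3 groups (grey) it stays between 21.8% and 28.2%.

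The signal varied with the distance to the start site, and the ratio much less. Regions lay from 1000 bases before to 943 bases after a start site, 70.4% of them upstream, and 71.6% were 100 bases wide. The sham median was 17.11 in regions 500 to 250 bases upstream, 11.57 in the last 100 bases before the start and 17.16 from 100 to 250 bases after it. The NDST3-treated median followed the same course, at 25.84, 17.49 and 25.88. The share of regions 2-fold or more above sham stayed between 24.4% and 26.9% in every distance bin. It was lower in wide regions, at 12.7% of 716 regions of 200 bases or more against 27.8% of 8109 regions of 100 bases. Wide regions also had more sham signal, with a median of 31.15 against 13.09, and width and sham signal were not separated. Among chromosomes it ran from 22% on chromosome 15 to 31.1% on chromosome 19 and 32.8% on the X chromosome.

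Neighbouring regions of a gene often differed. In 4100 pairs of adjacent regions of the same gene, a median of 102 bases apart, the median difference between their log2 ratios was 0.5 in either direction, and Pearson's r over the pairs was 0.18. Both were 2-fold or more above sham in 312 pairs and only 1 of the 2 in 1306. Of 3000 genes with at least 2 regions, 190 had all of them 2-fold or more above sham and 1166 had some but not all. The genes with the most higher regions were Bod1l, whose product protects stalled replication forks, with 4 of 4, followed by Cep350, a centrosomal protein, and Rbm5, a splicing regulator, with 3 of 3. Summed over its regions, Bod1l signal was 42.94 in sham, 73.2 in 6-OHDA and 137.97 with NDST3. Chst11, a chondroitin sulfotransferase, also had 3 of 3, with sums of 25.81, 51.9 and 82.87. In the other direction Gm10406 was the 1 gene with 2 lower regions, from a sham sum of 7.5 to 1 with NDST3. It is 1 of a family of near-identical copies on chromosome 14, so its signal is uncertain.

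The highest ratios came from regions with little sham signal. In most of those named here and in the next paragraph, the NDST3-treated value was a simple fraction of the 6-OHDA value. Examples are Anks6 (5.45 in 6-OHDA and 54.5 with NDST3), Ep400 (11.15 and 89.2), Smap1 (4.45 and 75.65) and Haus5 (9.4 and 62.04). Mrps36 (20.1 and 61.31) was an exception. Such fractions also recur in regions named further on, as in Txlng (3.2 and 38.4), Chmp5 (3.7 and 24.05), Gabra5 (6.45 and 27.09) and Grin1 (11.4 and 54.15). The limit on the columns given above therefore weighs most on these high ratios. How many of all named regions it touches was not counted. Usp46, a ubiquitin protease that acts on glutamate receptors and other substrates, had 3.26 in sham, 12.35 in 6-OHDA and 142.03 with NDST3 at chr5:74229042-74229142, 20 bases before its start, a log2 ratio of 5.07. Bzw1, a regulator of translation initiation, had 1.17, 11.9 and 69.7 (log2 ratio 5.03). For Smap1, a GTPase-activating protein of clathrin-dependent traffic, the values were 2.12, 4.45 and 75.65 (4.62). In all 3 the 6-OHDA signal was closer to sham than to the NDST3-treated signal.

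The next was Ep400, the ATPase of a complex that exchanges histones and acetylates them, with 2.82 in sham, 11.15 in 6-OHDA and 89.2 with NDST3 (log2 ratio 4.56). Idh1, the cytosolic isocitrate dehydrogenase, had 3.83, 8.65 and 92.27 (4.27). The 5 that complete the 10 highest were Anks6 and Rpgrip1l, both ciliary genes, Mettl17 and Mrps36, which encode mitochondrial proteins, and Haus5, a subunit of the augmin complex of the spindle, with log2 ratios of 4.02 to 4.24. Rpgrip1l differed from the rest in its 6-OHDA value, which was 4.95 against 4.74 in sham, before 94.05 with NDST3.

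In 53 regions the signal was under 1 in sham and at least 1 with NDST3. Txlng, a syntaxin-binding protein, had 0.81 in sham, 3.2 in 6-OHDA and 38.4 with NDST3. Chmp5, a component of the ESCRT machinery for endosomal sorting, had 0.87, 3.7 and 24.05. The small nucleolar RNA gene Snord3b3 (0.89 to 32.55) and the predicted gene Gm6787 (0.28 to 27) were also among the 5 highest, and both belong to families of similar copies. The fifth was Gabra5, which is described with the synaptic receptors. The reverse, at least 1 in sham and under 1 with NDST3, was found in 6 regions, all at 0.5 with NDST3, including Dhx33, an RNA helicase, at 2.5 in sham.

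The lowest ratios were smaller in size. Oga, the enzyme that removes O-linked N-acetylglucosamine from proteins, had 9.5 in sham, 0.5 in 6-OHDA and 1.0 with NDST3 at chr19:45772075-45772175, a log2 ratio of -2.39. Mcm3ap, a nuclear mRNA export factor, had 19.0, 3.5 and 3.5 (-2.15), and the polarity gene Pals1 had 7.0, 1.0 and 1.0 (-2.0). Fam210a, which encodes a mitochondrial protein, had 9.5, 1.0 and 2.0 (-1.81). Spg11, a gene of lysosome reformation mutated in hereditary spastic paraplegia, was lower from a stronger sham signal, 34.27 against 10.92 (-1.57), with 6.45 in 6-OHDA. Ghitm, a mitochondrial inner membrane protein, had 8.0, 2.0 and 2.0 (-1.58), and Zfp382, a zinc finger repressor, had 35.22, 7.95 and 10.43 (-1.66). All 7 stood well under sham in both lesioned groups. Because NDST3 was never under 6-OHDA in this table, any region low with NDST3 was also low in 6-OHDA.

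The strongest signals hardly differed. The 2 regions before Rn18s, the 18S ribosomal RNA gene, which exists in many copies, had 248.38 and 211.43 in sham and 278.98 and 199.19 with NDST3. Regions of 1600014C10Rik (125.21 and 153.93) and Kdm6a, the H3K27 demethylase UTX (77.42 and 99.86), had log2 ratios of 0.3 and 0.36. The exception was Hdhd3, a hydrolase-like gene, with 59.36 in sham, 101 in 6-OHDA and 146.81 with NDST3 (1.29).

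Just inside the 2-fold limit the signals were small, and just outside it they were larger. Hbp1, Capn7 and Ngdn sat just inside, with sham values of 2.5, 2.5 and 1.5 and NDST3-treated values of 6.0, 6.0 and 4.0. Gtf2f1, Tufm and Nr2f6 sat just outside, with 15.55, 8.02 and 8.02 in sham and 32.09, 17.03 and 17.03 with NDST3. On the lower side Tfb2m, Srsf7 and Atp5pb were just inside (6.0, 6.0 and 5.0 in sham, 2.5, 2.5 and 2.0 with NDST3). Tnip2, Fgf12 and Ufm1 were just outside, with 20.95, 30.18 and 19.7 in sham and 10.0, 14.66 and 9.41 with NDST3.

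Gene lists for the tissue and treatment were described by their counts against the 25.7% of all regions. Markers of several cell types had no region in the table at all. None of 19 dopamine neuron genes, 12 microglia genes, 14 lymphocyte genes or 38 homeobox and paired-box genes was represented, so nothing can be said here of H3K27ac at those promoters. Other cell type lists were thin, with 2 of 14 pan-neuronal, 2 of 12 astrocyte, 1 of 12 oligodendrocyte, 1 of 12 endothelial and mural, 1 of 9 serotonin neuron and 4 of 15 reactive phagocyte genes, and 0 of their 14 regions was 2-fold or more above sham.

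**Figure D3:**
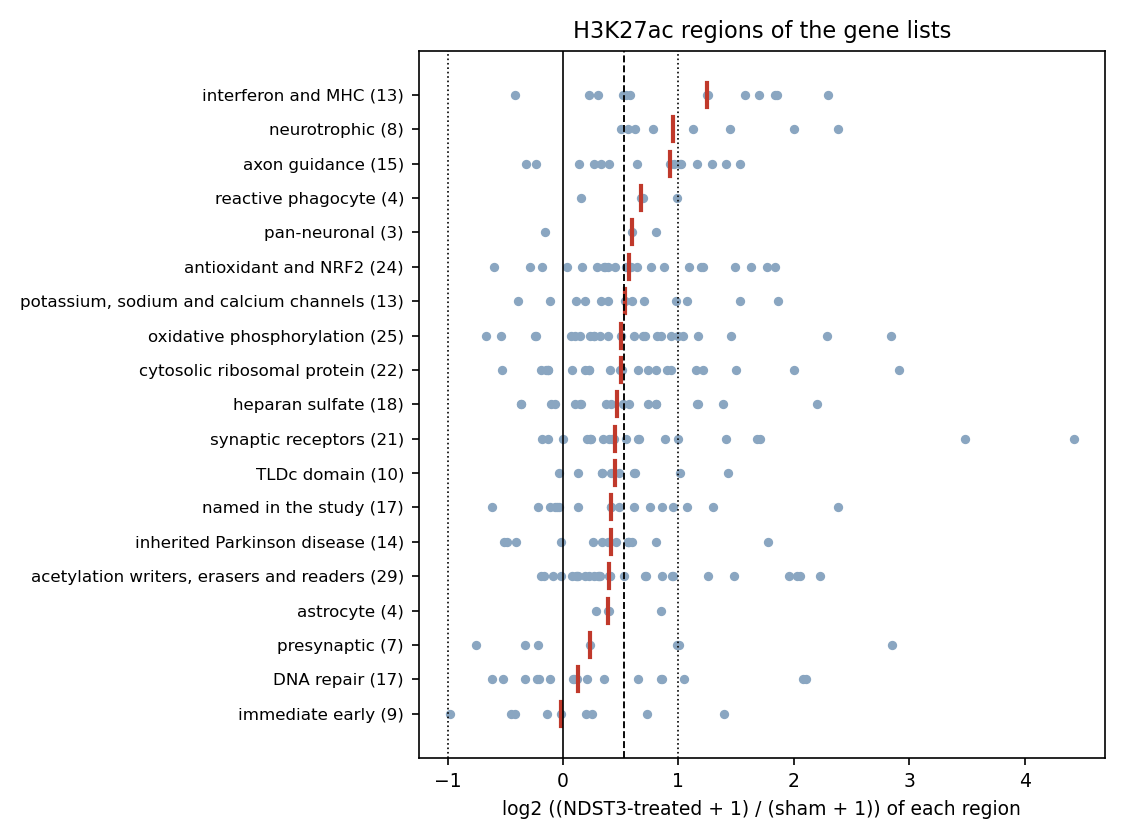
Log2 ratio of NDST3-treated over sham H3K27ac signal for each region (points) of gene lists with at least 3 regions, the number of regions in parentheses and the list median in red. The dashed line is the median of all regions (0.53) and dotted lines mark 2-fold; interferon and MHC genes have the highest median (1.25) and immediate early genes the lowest (-0.02).

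Interferon-induced and antigen presentation genes had the highest share. Of their 13 regions, in 9 of 20 genes, 7 (53.8%) were 2-fold or more above sham and 0 were lower, with a median log2 ratio of 1.25 against 0.53 over all regions. After subtraction of the overall median 5 of the 13 were still past 2-fold. Their median sham signal was 10.58, against 15.04 over all regions. In the decile of all regions with a sham signal from 8.56 up to 10.89, 40.3% were 2-fold or more above sham. Ifit3, an interferon-induced antiviral gene, had 4.2 in sham, 9.65 in 6-OHDA and 24.56 with NDST3 (2.3). Both regions of Mx1, an antiviral GTPase, were past 2-fold, at 6.03, 9.95 and 24.38 (1.85) and at 7.55, 13.9 and 26.81 (1.7). Tap1, the peptide transporter for MHC class I, had 6.71, 12.9 and 26.56 (1.84).

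The remaining members differed in how the 6-OHDA group stood. For B2m, the light chain of MHC class I, 6-OHDA was near sham (10.05, 10.45 and 25.38). For Ifit1 and Ifit2 it was near the NDST3-treated value (11.56, 28.35 and 28.85, and 16.1, 39.75 and 50.09). Transcription factor genes of the pathway were under 2-fold, with log2 ratios of 0.23 and 0.54 for Irf9 and -0.42 for Stat2. Stat2 had 7.0 in sham, 0.5 in 6-OHDA and 5.0 with NDST3.

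Neurotrophic factors and their receptors had 8 regions in 6 of 19 genes, 4 of them 2-fold or more above sham, and a median of 0.95. Nrg1, the ErbB receptor ligand neuregulin 1, had 1.5 in sham, 2.5 in 6-OHDA and 12 with NDST3 (2.38). Gfra1, the GDNF receptor, had 8.41, 14.65 and 24.64 (1.45), and Bdnf had 10.04, 13.9 and 23.17 (1.13). Cdnf, a dopamine neurotrophic factor, had 1 region past 2-fold with little signal (0.5, 1.5 and 5.0), and its 2 stronger regions were at 0.78 and 0.5. Gdnf itself had 6.04, 6.95 and 9.43 (0.57). All 8 regions were above sham, and 2 of them were past 2-fold after subtraction of the overall median. The list's median sham signal was 9.22, in the decile (8.56 up to 10.89) where 40.3% of all regions were 2-fold or more above sham.

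Axon guidance genes had 6 of 15 regions past 2-fold and a median of 0.93. Efnb2, the ligand ephrin-B2, had 10.84 in sham, 13.15 in 6-OHDA and 33.31 with NDST3 (1.53). The Slit receptor gene Robo2 had 5 regions with log2 ratios of 0.33 to 1.41, of which 2 were past 2-fold. Plexin receptor genes Plxna1 (1.29) and Plxnb1 (1.16) and the netrin gene Ntn1 (1.02) were also past it. After subtraction of the overall median, 1 of the 15 regions was.

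Synaptic receptor genes stood near the background, at 5 of 21 regions (23.8%) and a median of 0.45, but held the highest single ratios of any list. Gabra5, the alpha-5 subunit of the GABA-A receptor, had 0.31 in sham, 6.45 in 6-OHDA and 27.09 with NDST3 at chr7:57159610-57159710 (4.42). Grin1, the obligatory subunit of NMDA receptors, had 3.94, 11.4 and 54.15 (3.48). Grik1, a kainate receptor gene, had 1 region at 1.7 and another at -0.18. Gabra2 and Gria4, subunits of GABA-A and AMPA receptors, had log2 ratios from 0 to 0.66.

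**Figure D4:**
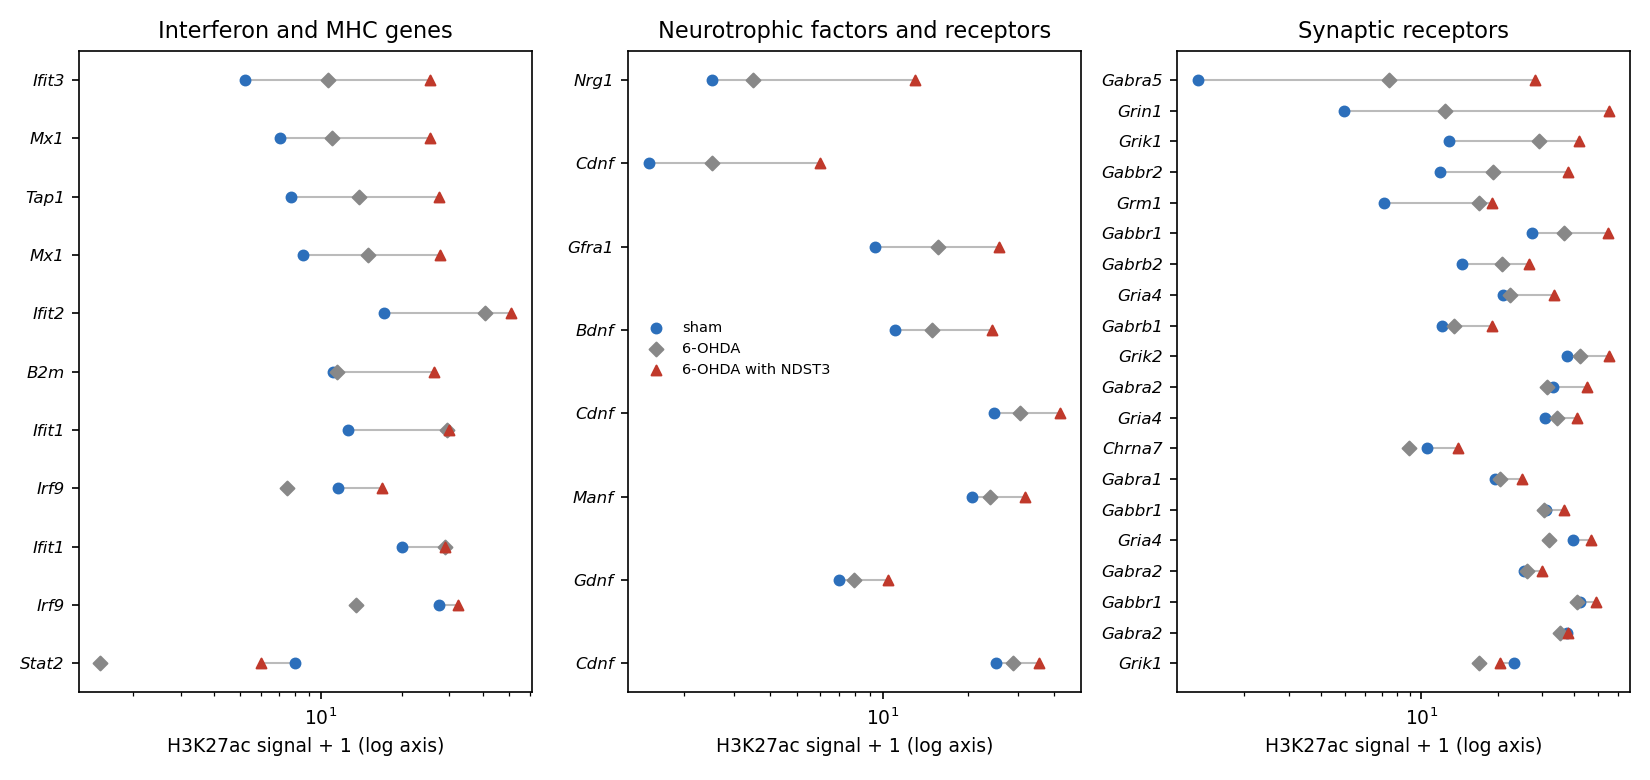
H3K27ac signal + 1 (horizontal log axis) in sham (blue circles), 6-OHDA (grey diamonds) and 6-OHDA with NDST3 (red triangles) for regions of 3 gene lists, 1 row per region, ordered by the ratio of NDST3-treated to sham and joined by a line; each point is 1 pooled value. The widest gap is in Gabra5, from 0.31 to 27.09, and the only plotted interferon row with NDST3 under sham is Stat2.

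Among enzymes that write, erase or read histone acetylation, 6 of 29 regions (20.7%) were past 2-fold, with a median of 0.4. They were Hdac5 (9.96 in sham, 29.55 in 6-OHDA and 50.37 with NDST3, 2.23), Hdac8 (2.05), Kat6a (1.96), Kat8 (1.25) and both regions of the deacetylase Sirt6 (2.03 and 1.48). Ep300, which encodes p300 itself, was at 18.95, 14.9 and 20.86 (0.13).

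The study's own genes of interest were mostly near or under the median. The 5 regions of Ncoa7, a nuclear receptor coactivator, had log2 ratios of -0.03 to 0.61, with values of 25.13 to 41.21 in sham, 23.35 to 41.25 in 6-OHDA and 30.63 to 45.17 with NDST3. Mouse Ndst3 had 14.1 in sham, 6.95 in 6-OHDA and 13.4 with NDST3 (-0.07). The delivered gene came from a vector, so this region says nothing of it. Its paralogue Ndst4 had 2 regions past 2-fold, at 8.58, 27.05 and 43.15 (2.2) and at 20.44, 36.0 and 46.86 (1.16). Dlat, a subunit of pyruvate dehydrogenase, had 3 regions at 0.95 to 1.3. Maoa (-0.05) and Syn2 (-0.22) were slightly under sham, and Camk4 had 0.42 and 0.75. Over the whole list of 17 regions, in 9 of 39 genes, 3 (17.6%) were past 2-fold. These genes were chosen by the study on its own samples, so the count is not independent evidence.

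Immediate early genes were the list with the lowest median, -0.02, and 5 of 9 regions were under sham. Junb had 35.25 in sham, 13.9 in 6-OHDA and 17.38 with NDST3 in 1 region (-0.98) and 36.73, 23.85 and 27.33 in the next (-0.41). Nr4a3 was at -0.45 and Jun at -0.02, while Arc was at 0.73. Nr4a1 had 1 region past 2-fold (1.39) and another at -0.14. DNA repair genes had a median of 0.13 with 3 of 17 regions past 2-fold, in Xrcc4 (2.11), Mre11a (2.08) and Brca2 (1.05). Presynaptic genes were mixed, with Syt2, a synaptotagmin of fast release, at 2.85 and Syt1 at -0.76.

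Oxidative phosphorylation genes had 6 of 25 regions past 2-fold and a median of 0.5, led by the complex I genes Ndufa2 (7.83 in sham, 26.05 in 6-OHDA and 62.18 with NDST3) and Ndufs1 (10.63, 28.55 and 55.64). Cytosolic ribosomal protein genes had 5 of 22 and a median of 0.5, led by Rps6 (7.81, 27.05 and 65.09). Antioxidant and NRF2 genes had 7 of 24 (29.2%) and a median of 0.57, with both regions of the glutathione reductase gene Gsr past 2-fold. Channel genes had 3 of 13 (median 0.54), heparan sulfate genes 4 of 18 (0.47), TLDc domain genes 2 of 10 (0.45) and genes of inherited Parkinson disease 1 of 14 (7.14%, median 0.42), in Synj1.

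The RNA-seq libraries of the same design (2 sham, 1 of 6-OHDA and 2 NDST3-treated, 51003699 to 70533326 counted reads each) allowed each promoter to be set beside the RNA of its gene. Of 7204 genes, 6736 were listed and 6688 were tested. In a fit over 19300 genes, edgeR's quasi-likelihood test called 0 genes between NDST3-treated and sham at a Benjamini-Hochberg adjusted p under 0.05, and the smallest adjusted p was 0.103. Without NDST3-treated replicate 1 it called 87 genes higher and 24 lower. At an unadjusted p under 0.05, 2744 genes (14.2%) passed. DESeq2 called 845 genes (5.04%) higher and 203 (1.21%) lower. By the rule of at least 2-fold with an unadjusted p under 0.05, 923 genes (4.78%) were higher and 208 (1.08%) lower. Nothing in the labels says that the libraries came from separate animals, so these p-values measure only the spread between libraries.

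RNA differences showed little relation to the promoter signal. Of 2349 tested genes with a region 2-fold or more above sham, 56 (2.38%) were higher in RNA by the 2-fold rule, against 80 of 4274 genes (1.87%) with no region past 2-fold, 138 of all 6688 genes with a region (2.06%) and 4.78% of all genes. DESeq2 called 3.32% of the first class and 3.36% of the second higher. The median RNA log2 fold change was 0.02 in the first class and 0.01 in the second. Of 55 genes with a lower region, 2 were higher in RNA and 1 was lower. Pearson's r across 6688 genes between the highest H3K27ac ratio of a gene and its RNA log2 fold change was 0.01, and genes are not independent replicates. The level of RNA in sham was no better a guide. From the lowest to the highest quartile of genes by sham RNA, the median sham H3K27ac signal ran from 14.58 to 15.75, and the share of regions 2-fold or more above sham was 25.3% to 25.9%.

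RNA is given for named promoters with high and low ratios. Usp46 RNA was at 81.3 and 89.9 CPM (read counts relative to the TMM-scaled library size) in sham, 55.1 in 6-OHDA and 78.1 and 74.9 with NDST3, and the last 2 were under both sham libraries (log2 fold change -0.16 ± 0.09, SE; edgeR adjusted p = 0.483). Bzw1 RNA was above both sham libraries with NDST3, at 190.9 and 220.2 CPM against 167.2 and 177.7, with 270.3 in 6-OHDA (0.25 ± 0.11; edgeR adjusted p = 0.387). Gabra5 RNA was at 25.2 and 32.0 CPM in sham and 28.3 and 25.9 with NDST3, which overlap (-0.08 ± 0.15). Grin1 was at 339.6 and 428.5 CPM in sham and 341.3 and 291.2 with NDST3. Bdnf, whose region had a log2 H3K27ac ratio of 1.13, had RNA under both sham libraries with NDST3, at 11.5 and 10.4 CPM against 13.6 and 16.7 (-0.47 ± 0.16; edgeR adjusted p = 0.306). Oga, with the lowest ratio, had overlapping RNA values, with 201.3 and 216.1 CPM in sham and 205.6 and 210.9 with NDST3.

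Of the 10 genes with a higher region and the smallest RNA p-values, 9 had both NDST3-treated libraries above both sham libraries. A choice by small p-values favours separated libraries. By the 2-fold rule, 56 of all tested genes with a higher region were higher in RNA and 2 lower, so most differences of that size went upwards. B2m RNA was at 90.7 and 74.0 CPM in sham, 557.2 in 6-OHDA and 214.6 and 305.5 with NDST3 (log2 fold change 1.66 ± 0.21, SE; edgeR adjusted p = 0.152), and Tap1 at 3.57 and 3.61, 19.4, and 8.58 and 11.5 (1.49 ± 0.2).

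In both genes the 6-OHDA library had the highest RNA level, whereas the promoter signal with NDST3 was at or above 6-OHDA, as in every region of the table. Another 6 of the 10 were Bst2, an interferon-induced antiviral protein, Hpgds, a prostaglandin synthase, Lgmn, a lysosomal protease, Pla2g15, a lysosomal phospholipase, Adam17, a sheddase, and Nek6, a mitotic kinase, with RNA log2 fold changes of 0.71 to 1.89. All 10 had an edgeR adjusted p of 0.152. With DESeq2 all 10 had an adjusted p under 0.05. The DESeq2 adjusted p was 1.07e-11 for B2m, 1.66e-06 for Tap1 and 5.05e-08 to 2.58e-05 for the 6 genes just named.

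**Figure D5:**
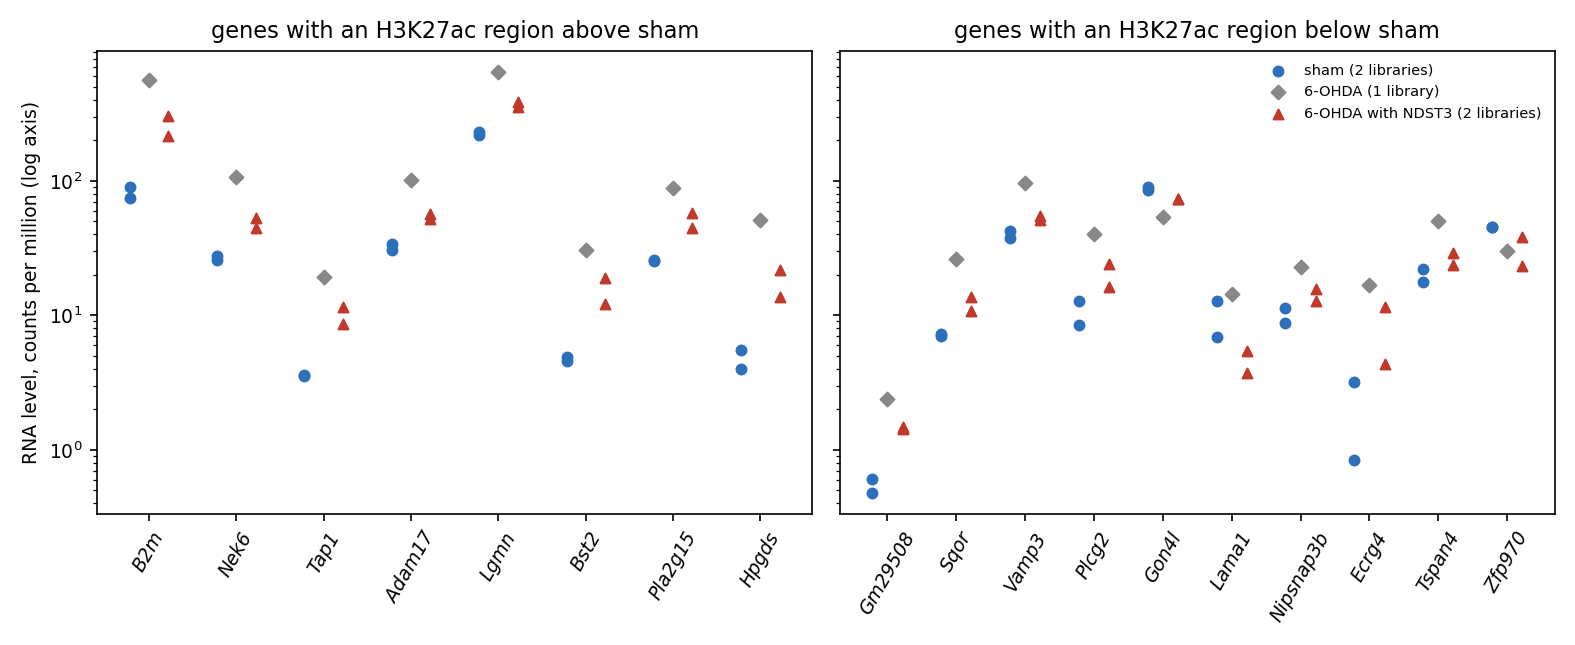
RNA level (CPM, log axis) in each library for genes with the smallest RNA p-values among genes with an H3K27ac region 2-fold or more above sham (left, 8 genes) or below it (right, 10 genes): sham in blue, 6-OHDA in grey, 6-OHDA with NDST3 in red, 1 point per library. On the left all 8 have both NDST3-treated libraries above both sham libraries, and on the right 7 of 10 have them above sham.

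Marker genes of other cell types in the same RNA libraries were counted at an unadjusted p under 0.05, which 14.2% of all genes passed. Of interferon and MHC genes 17 of 20 were higher at that threshold (median log2 fold change 1.36), as were 9 of 11 tested microglia genes (1.54), 14 of 15 reactive phagocyte genes (2.59) and 7 of 12 astrocyte genes (0.58). In the other direction 15 of 19 dopamine neuron genes (-1.43), 7 of 14 pan-neuronal genes (-0.34) and 2 of 12 endothelial and mural genes (-0.17) were lower, 1 dopamine neuron gene was higher, and 0 of 12 oligodendrocyte and 0 of 9 serotonin neuron genes passed in either direction. Axon guidance and neurotrophic genes, whose H3K27ac shares were also above the background, had more lower than higher genes at that threshold. Of 25 axon guidance genes 8 were lower and 2 higher (-0.23), and of 19 neurotrophic genes 5 were lower and 2 higher (-0.13). With edgeR 0 of these passed after adjustment. Ntn1 RNA was under both sham libraries with NDST3 (-0.72 ± 0.15; edgeR adjusted p = 0.168, DESeq2 adjusted p = 0.002). The part of cell composition in the H3K27ac values was not tested, since microglia and dopamine neuron genes have no region in the table.

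Among the 10 genes with a lower region and the smallest RNA p-values, 7 had both NDST3-treated libraries above sham. They were also chosen by p-value, and by the 2-fold rule 138 of all genes with a region were higher in RNA and 11 lower. Sqor, a mitochondrial sulfide-oxidizing enzyme, was at 7.07 and 7.29 CPM in sham, 26.3 in 6-OHDA and 10.8 and 13.8 with NDST3 (0.78 ± 0.16), while 1 of its 2 regions had 17.42 in sham, 4.95 in 6-OHDA and 6.05 with NDST3 (-1.39). Plcg2, a phospholipase of immune receptor signalling, had 13.0, 4.0 and 6.0 at its region and 0.93 ± 0.28 in RNA. Lama1, a laminin chain, was under sham in both, at 26.01 and 11.21 in H3K27ac and -1.09 ± 0.36 in RNA. Gon4l and Zfp970 were the other 2 under sham in RNA. The edgeR adjusted p of these 10 genes ran from 0.176 to 0.387. The DESeq2 adjusted p was under 0.05 for Sqor (0.0152) and Plcg2 (0.0414) and not for the others.

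ATAC-seq of the same design, which maps accessible chromatin with 1 library per group, overlapped the H3K27ac regions little. Of 3537 ATAC regions with a value in all groups, 375 (10.6%) shared at least 1 base with 379 H3K27ac regions (3.35%). In ATAC 296 regions (8.37%) were 2-fold or more above sham and 209 (5.91%) below, with a median log2 ratio of 0.2, and the NDST3-treated value was at or above 6-OHDA in 61.7%, so that table did not have the order seen in every H3K27ac region. In the 104 overlapping pairs with a higher H3K27ac region, the median ATAC log2 ratio was 0.25 (quartiles 0.02 and 0.58), 13 were 2-fold or more above sham and 1 below. In the 302 pairs with H3K27ac past 2-fold in neither direction the median was 0.14, with 14 above and 14 below. Pearson's r between the H3K27ac and ATAC ratios over the pairs was 0.09.

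Among pairs past 2-fold in both assays, the one with the highest H3K27ac ratio was at Gabpb2, a subunit of the GABP transcription factor, with H3K27ac of 6.35 in sham, 19.85 in 6-OHDA and 59.55 with NDST3 and ATAC signals of 16.27, 28.25 and 43.04. Lhpp, a histidine phosphatase, had H3K27ac of 1.82, 7.95 and 17.49 and ATAC of 12.69, 27.75 and 31.18. Irf3, a transcription factor that induces interferon, had H3K27ac of 10.05, 14.15 and 26.18 and ATAC of 8.22, 11.25 and 21.99. Csrnp3, a nuclear transcription regulator, was the 1 of these pairs with opposite directions, at 13.06, 10.45 and 28.36 in H3K27ac and 8.56, 6.25 and 2.6 in ATAC. At Chmp5 and Anks6, whose H3K27ac ratios were 3.74 and 4.24, ATAC differed less, with 524.13 and 571.63 at the first and 122.59 and 182.91 at the second.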

How the data were processed

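H3K27ac CUT&RUN (2 sham, 2 6-OHDA and 2 NDST3-treated libraries, pooled to 1 column per group) and ATAC-seq (1 library per group) were deposited by the authors as a normalized tag signal per promoter region. Per the labels, bcl2fastq, Trim Galore and Bowtie are named, with the build mm10. For ATAC-seq the methods name MACS2 as the peak caller. The caller for CUT&RUN and, for both, the scaling and the read depth are not given in the sources used here, so no interval could be formed. Bulk RNA-seq was deposited by the authors as raw read counts per gene, together with FPKM and TPM values, which were not used here. The authors aligned these reads with HISAT2 and assembled them with StringTie. Single-cell means, also deposited, were not used.

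Regions with a signal of at least 1 in any group were kept, and ratios were taken on the log2(signal + 1) scale, on which low signals show smaller differences. The counts were filtered with filterByExpr, scaled by TMM and tested with edgeR 4.0.16 (R 4.3.3) over all 5 libraries (2 residual degrees of freedom), with DESeq2 1.42.0 as an alternative, after the code was tested on simulated data. Symbols were matched through RefSeq synonyms. Named regions were the 10 highest and 10 lowest ratios, the 5 strongest regions under 1 in 1 group, the 5 strongest per group, list genes past 2-fold and the study's genes. Named RNA genes were the 10 with the smallest p per direction, and promoters came first from these sets. The members and the 26 lists were chosen with earlier results of these data known. Alternatives changed the pseudocount, filter, scaling, fold and RNA fit. A few genes that these rules select are not reported here.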

Additional observations from a re-analysis of the deposited data

How the results depend on the processing

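Replicate spread, read depth and scaling of the H3K27ac columns are unknown, so only the size of a ratio can be given, and low signals carry the least weight. Against 2911 regions higher and 72 lower (median log2 ratio 0.53), a pseudocount of 5 gave 1851 and 15, columns brought to the same sum gave 1077 and 540 (median -0.03), centring gave 1105 and 476 (median 0), 1 summed value per gene gave 1774 and 41, a 1.5-fold limit gave 5305 and 326, and a 4-fold limit gave 471 and 4. A pseudocount of 0.1, a minimum of 1 in both groups and no filter kept both counts within 1.5 times. The order of named ratios moved too: with 0.1, Gm6787 (6.16), Gabra5 (6.05) and Bzw1 (5.78) stood above Usp46 (5.4), and with 5, Mcm3ap (-1.5), Zfp382 (-1.38) and Spg11 (-1.3) stood below Oga (-1.27). Promoter regions alone were not run, since the table has no annotation class. Requiring the overlap with ATAC regions to cover at least 0.5 of the H3K27ac region left 199 in place of 379.

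edgeR called 0 genes in RNA-seq, in either direction, with RLE size factors, with no filter, with only the 4 libraries compared and with the replicate number as a block (0 genes higher, 0 lower). DESeq2 gave 845 higher and 203 lower, 268 of them among genes with an H3K27ac region and 76 higher among genes with a region 2-fold above sham. The 2-fold rule with an unadjusted p under 0.05 gave 923, 208, 149 and 56. Leaving out 1 library gave 0 to 87 higher and 0 to 24 lower, 0 to 22 among genes with a region and 0 to 9 higher among genes with a region 2-fold above sham, and each maximum came without NDST3-treated replicate 1. The lone library of a group was then assumed to vary like the others. The deviations of same-numbered libraries correlated at -0.337, and a block with crossed numbers, chosen after seeing the data, called 1024 and 170 genes, 292 of them among genes with a region and 86 higher among genes with a region 2-fold above sham. The cause of these differences was not tested.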
